A study of Rattus norvegicus with 12 samples.

Results

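The 8 genes described here, Rgs14, Amigo2, Pcp4, Necab2, Cacng5, Bok, Cpne4 and Iyd, mark pyramidal neurons of the hippocampal fields CA2 and CA3. They were chosen by name from the 17494 genes of the count table, 5 as CA2 markers (Rgs14, Amigo2, Pcp4, Necab2 and Cacng5) and 3 as CA3 markers (Bok, Cpne4 and Iyd). The RNA came from 12 wild-type male Long Evans rats, all exposed to 3 low-level blasts at 10 weeks of age and killed 29 weeks after blast. From week 2 after blast, 6 rats ate chow with 500 mg/kg boldine (blast-boldine), an alkaloid of the Chilean boldo tree, and 6 ate the same chow without boldine (blast-controls). Rats not exposed to blast were not analysed here, so no value below measures an effect of blast. The labels give the tissue as brain and the study's methods as hippocampus, and 1 library of total RNA depleted of ribosomal RNA was made from each rat.

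The CA3 field receives mossy fibres from dentate granule cells, and its pyramidal cells excite each other through recurrent axons. CA2 is a small field between CA3 and CA1 that is known for its part in social memory and for synapses that resist long-term potentiation. RGS14, a scaffold for G protein and calcium signalling, is known to hold back that plasticity. None of the 8 genes is restricted to CA2 and CA3: Pcp4, for example, is also expressed in dentate granule cells, striatum and thalamus. In RNA from whole tissue, fewer cells of a type and less RNA per cell cannot be told apart.

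The promoters of Amigo2 and Cpne4 are shown because these genes had the most similar deviations among the rats of the 21 pairs of marker genes compared below. Each run holds the 250 bases before and the 50 bases after the start of the gene in RefSeq, 5′ to 3′ on the gene's strand, in build GRCr8. Capitals mark matches, on both strands, to 6 motifs: the TATA box (TATAAA), the cyclic AMP response element (TGACGTCA), the E-box (CACGTG), the AP-1 motif (TGANTCA), the CCAAT box (CCAAT) and the GC box (GGGCGG).
The Amigo2 window is chr7:130273686-130273985 on the minus strand, and the Cpne4 window chr8:114055902-114056201 on the plus strand.
Amigo2: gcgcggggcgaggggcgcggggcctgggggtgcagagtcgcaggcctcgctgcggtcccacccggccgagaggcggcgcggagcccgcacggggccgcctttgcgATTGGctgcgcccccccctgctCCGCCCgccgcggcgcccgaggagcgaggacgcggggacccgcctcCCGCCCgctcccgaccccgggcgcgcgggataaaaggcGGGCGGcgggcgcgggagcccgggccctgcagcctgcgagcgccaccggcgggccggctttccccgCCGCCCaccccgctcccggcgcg
Cpne4: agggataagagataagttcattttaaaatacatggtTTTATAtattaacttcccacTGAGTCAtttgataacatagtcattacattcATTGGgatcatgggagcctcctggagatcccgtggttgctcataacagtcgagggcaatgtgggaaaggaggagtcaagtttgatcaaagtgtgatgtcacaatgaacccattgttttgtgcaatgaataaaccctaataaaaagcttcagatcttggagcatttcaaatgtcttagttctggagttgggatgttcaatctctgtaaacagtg
The Amigo2 window held 4 matches to the GC box and 1 to the CCAAT box, with a GC content of 83.7%. The Cpne4 window held 1 match each to the TATA box, the AP-1 motif and the CCAAT box, with a GC content of 38.3%, against a median of 51.7% over 33469 promoters. Of those promoters, 37.5% held the CCAAT box, 33.1% the GC box, 14.2% the TATA box, 7.33% the AP-1 motif, 6.42% the E-box and 1.83% the cyclic AMP response element. The CCAAT box was thus the motif that the pair shared, and it is a common one. A match is a description of the letters and not a bound site. A promoter was found for 7 of the 8 genes, all but Bok.

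The depth of the libraries, as total counts, was 10148474 to 40850106, and in blast-control rat 6 it was 74008. In rat 6 a single count was worth 15.8 CPM (CPM is the count corrected for the library's size with TMM factors), and the floor of 3 counts taken as the smallest detected value was 47.5 CPM. In that library Necab2 had 10 counts and Pcp4 had 5, while Cpne4 and Bok had 2 each, Rgs14 and Amigo2 had 1 each, and Cacng5 and Iyd had 0. Rat 6 therefore gives no usable level for 6 of the 8 genes, and the comparison of each marker gene is given with and without it. Suffixes of the library names point to a pair of sequencing sheets, an assignment inferred here and not stated by the labels: rats 1, 7, 9, 20, 32 and 35 on sheet 1 and rats 4, 5, 6, 12, 17 and 19 on sheet 2. Each sheet holds 3 rats of each group, and this assignment was picked because, of the 4 that remain if rat numbers are assumed to rise with the suffix on each sheet, it accounted for most of the first principal component of the 11 deeper libraries. Its share of that component, 95.1%, is therefore set by the choice, and the other assignments had 57.3%, 14.9% and 2.84%. Markers of the hippocampus were present in all 11 deeper libraries, with summed levels of 699.7 to 1242 CPM for 7 CA1 genes and 243.6 to 478.7 CPM for 6 dentate granule genes, of which 1 CA1 gene or 1 to 2 dentate genes were at 0 in some rats. Markers of neighbouring regions were present too, with 152.1 to 276.7 CPM for 4 thalamus genes and 121.0 to 163.0 CPM for 6 striatum genes, none of them at 0.

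None of these genes showed a difference between diets larger than the spread between rats. Of the 8 genes, 7 passed the filter on low counts, and 0 of these 7 had an unadjusted p under 0.05 in edgeR's quasi-likelihood test over 12 rats, where 1.07% of the 12325 genes tested did (132 genes). Their log2 fold changes, blast-boldine over blast-control, ran from -0.24 for Cacng5 to 0.19 for Amigo2, 4 higher and 3 lower, where 51.3% of all genes tested were higher. The unadjusted p lay between 0.277 and 0.942, and every adjusted p rounded to 1 after Benjamini-Hochberg adjustment. No gene in the table had an adjusted p under 0.05, which was also the outcome in DESeq2, where 85 of 15690 genes had an unadjusted p under 0.05 and none of them was one of the 8. The median log2 fold change of the 7 genes was 0.024, beside 0.0046 over all genes tested. Without rat 6 it was -0.025, and 0 of the 7 genes had an unadjusted p under 0.05 in edgeR, beside 1.4% of the genes tested.

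**Figure D1:**
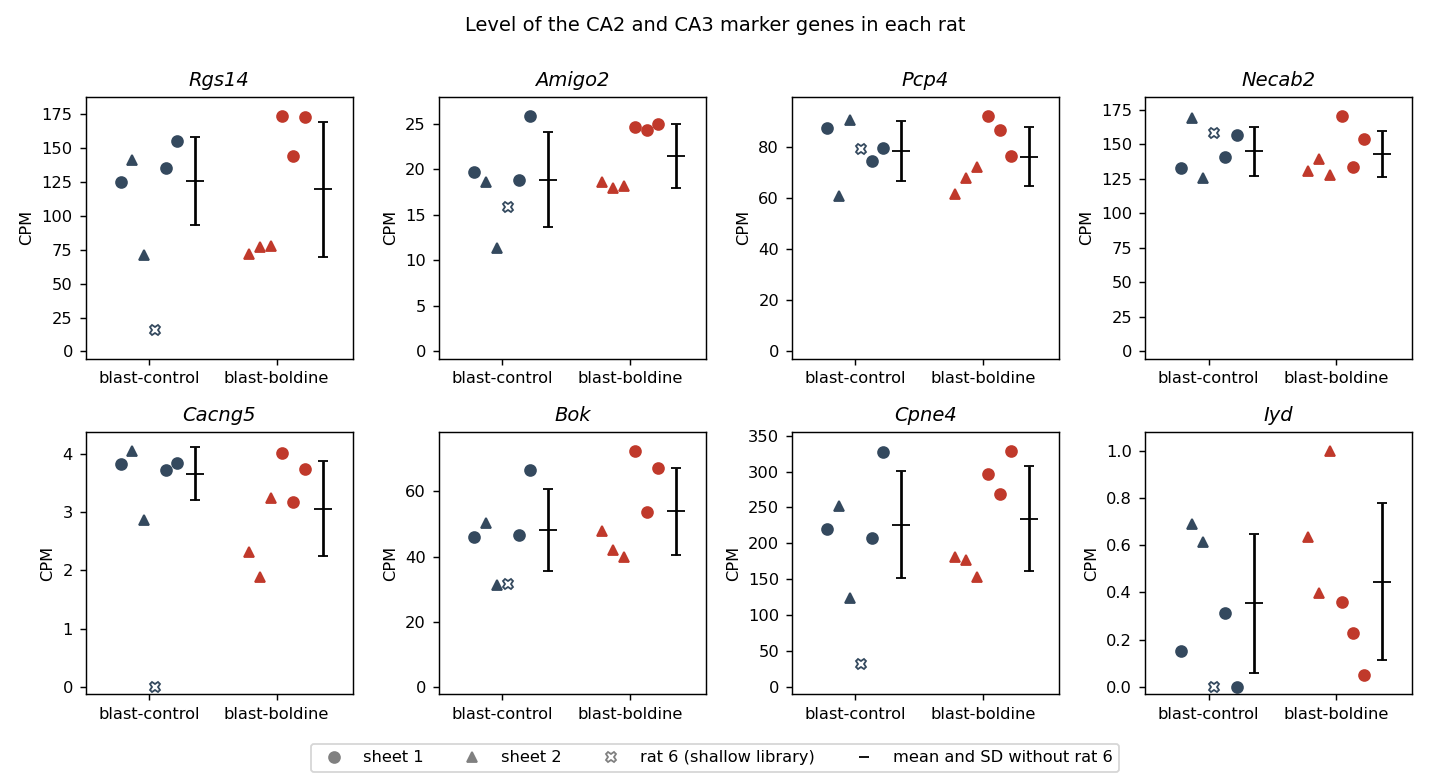
Level in CPM of each of the 8 genes (y axis, linear) in each rat by diet (x axis). Circles are rats of sheet 1, triangles rats of sheet 2, the open cross is the shallow library of rat 6, and the dash with bars is the mean and SD without rat 6. In Rgs14 and Cpne4 the 3 blast-boldine rats of sheet 2 and rat 5 lie below all the rats of sheet 1, and the diets overlap in every panel.

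Per kilobase of exon, the order of the levels in the 11 deeper libraries was Pcp4, Necab2, Cpne4, Rgs14, Bok, Amigo2, Cacng5 and Iyd. Mean levels were 110.6 ± 15.9 CPM per kb (SD, n = 11) for Pcp4 and 91.3 ± 10.4 CPM per kb (SD, n = 11) for Necab2. Cpne4 was at 55.4 ± 16.8 CPM per kb (SD, n = 11), and Rgs14 at 42.8 ± 14.3 CPM per kb (SD, n = 11). As a ratio of means, the closest neighbours in the middle of this order were Rgs14 and Bok (37.9 ± 9.40 CPM per kb, SD, n = 11), with Rgs14 the higher in 8 of 11 rats, and the levels of the pair overlapped widely. Pcp4 exceeded Necab2 in 10 of 11 rats, and every other gene exceeded the next in all 11. The lower end was formed by Amigo2 (6.55 ± 1.40), Cacng5 (4.02 ± 0.868) and Iyd (0.293 ± 0.221), in CPM per kb (SD, n = 11). Per-length levels take the exon length in the count table, and the mean length of the transcripts in use was not measured.

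In build mRatBN7.2, used for the gene positions below, Rgs14 occupies chromosome 17 from 9249019 to 9263104, on the minus strand, with 16 exon blocks. In blast-boldine rats it ran from 71.6 to 174.1 CPM with a median of 110.9 CPM, and in blast-controls without rat 6 from 71.1 to 155.3 CPM with a median of 135.6 CPM. The rats formed a low and a high set: rats 5, 12, 17 and 19, all of sheet 2 and 3 of them on boldine, lay at 71.1, 71.6, 77.0 and 77.6 CPM, and the other 7 lay at 125.3 CPM or above. Rat 4, a blast-control of sheet 2, was in the high set with 141.1 CPM. Rgs14 had a log2 fold change of 0.024 (SE 0.33, 95% interval -0.68 to 0.73) in edgeR over 12 rats and -0.077 (SE 0.29) without rat 6, so its sign turned with that library. On mean log2 CPM, an exact permutation test gave p = 0.656 over 924 assignments of 12 rats and p = 0.645 over 462 without rat 6.

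Amigo2, an adhesion protein with leucine-rich repeats, lies on chromosome 7 from 128391493 to 128394589, on the minus strand, in 1 exon block. It ran from 18.0 to 25.0 CPM in blast-boldine rats (median 21.5) and from 11.4 to 25.9 CPM in blast-controls without rat 6 (median 18.8). No blast-boldine rat lay outside the range of the controls. The 3 blast-boldine rats of sheet 1 lay close together at 24.3, 24.6 and 25.0 CPM, above controls 1 and 7 at 19.7 and 18.8 CPM but below control 9 at 25.9 CPM. For Amigo2 the log2 fold change was 0.19 (SE 0.19, 95% interval -0.23 to 0.60) in edgeR over 12 rats and 0.18 (SE 0.19) without rat 6, and it was 0.061 without control rat 5 and 0.32 without control rat 9. Without rat 6 and adjusted for sheet the value for Amigo2 was 0.23 (SE 0.12), with the smallest unadjusted p of the 7 genes, 0.0760, and an adjusted p of 0.898 in edgeR. In that fit 5.35% of the 12529 genes tested had an unadjusted p under 0.05, and 0 of the 7 marker genes did. The exact permutation test gave p = 0.234 over 12 rats and p = 0.348 without rat 6. Within sheets the exact test gave p = 0.0800 over 400 assignments of 12 rats and p = 0.0850 over 200 without rat 6, and its smallest possible p is 0.00500.

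Pcp4 encodes a small peptide that binds calmodulin, and lies on chromosome 11 from 35800713 to 35861725, on the plus strand. It ran from 61.4 to 92.2 CPM in blast-boldine rats (median 74.3) and from 60.9 to 90.3 CPM in blast-controls without rat 6 (median 79.5). Here rat 4 was the lowest of the 11 rats and rat 5 the highest control, the reverse of their order in Rgs14. Its log2 fold change was -0.044 (SE 0.14, 95% interval -0.35 to 0.26) in edgeR over 12 rats and -0.048 (SE 0.14) without rat 6. The exact permutation test gave p = 0.684 over 12 rats and p = 0.738 without rat 6.

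Necab2, a neuronal calcium-binding protein that binds the adenosine and metabotropic glutamate receptors, lies on chromosome 19 from 47501351 to 47527722, on the plus strand. Its levels were among the steadiest of the 8, from 127.7 to 170.8 CPM in blast-boldine rats (median 136.5) and from 125.7 to 169.2 CPM in blast-controls without rat 6 (median 140.5). The ranges all but coincided, and rat 6 fell inside them at 158.4 CPM from 10 counts. In Necab2 the log2 fold change was -0.033 (SE 0.12) in edgeR over 12 rats, with a 95% interval of 0.813-fold to 1.17-fold, the narrowest of the 7, and without rat 6 it was -0.025 (SE 0.11). The exact permutation test gave p = 0.649 over 12 rats and p = 0.825 without rat 6.

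Cacng5, an auxiliary subunit of AMPA-type glutamate receptors, lies on chromosome 10 from 92830196 to 92837001, on the minus strand. It ran from 1.88 to 4.01 CPM in blast-boldine rats (median 3.20) and from 2.87 to 4.05 CPM in blast-controls without rat 6 (median 3.82). The blast-boldine rats 12 and 17, both of sheet 2, lay below every control other than rat 6, and the diets otherwise overlapped. Cacng5 had a log2 fold change of -0.24 (SE 0.21, 95% interval -0.70 to 0.22) in edgeR over 12 rats and -0.26 (SE 0.20) without rat 6. The means of log2 CPM differed with the opposite sign over 12 rats, 0.54, because it gives rat 6, at 0 counts, the same weight as the other rats, and without that library it was -0.28 (exact permutation p = 0.903 over 12 rats and 0.199 without rat 6).

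Bok, a member of the BCL-2 family that binds inositol trisphosphate receptors, lies on chromosome 9 from 94223571 to 94234476, on the plus strand. In blast-boldine rats it ran from 40.0 to 72.4 CPM (median 50.8) and in blast-controls without rat 6 from 31.1 to 66.5 CPM (median 46.6). Rats 20 and 35, both on boldine, were the only ones above the highest control, and 4 of the 6 rats fed boldine exceeded the control median. Bok had a log2 fold change of 0.19 (SE 0.21, 95% interval -0.26 to 0.63) in edgeR over 12 rats and 0.16 (SE 0.20) without rat 6, and it was 0.080 without control rat 5 and 0.32 without control rat 9. The exact permutation test gave p = 0.271 over 12 rats and p = 0.483 without rat 6.

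Cpne4, a copine that binds phospholipids in the presence of calcium, spans chromosome 8 from 105177376 to 105653068 on the plus strand, with 19 exon blocks. It ran from 153.6 to 328.9 CPM in blast-boldine rats (median 225.0) and from 123.4 to 327.8 CPM in blast-controls without rat 6 (median 219.9). The highest rat of each diet, 35 and 9, differed by little more than 1 CPM, and rat 5 was the lowest of the 11. Cpne4 had a log2 fold change of 0.18 (SE 0.33, 95% interval -0.52 to 0.89) in edgeR over 12 rats. Without rat 6 it was 0.048 (SE 0.26), and leaving out rat 9 in its place gave 0.37. The exact permutation test gave p = 0.409 over 12 rats and p = 0.829 without rat 6.

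Iyd, iodotyrosine deiodinase, is best known for recovering iodide in the thyroid and lies on chromosome 1 from 40004041 to 40019323, on the plus strand. It was at the limit of detection. Blast-boldine rats 12, 17, 19, 20, 32 and 35 had 11, 4, 13, 8, 5 and 1 counts, and blast-controls 1, 4, 5, 6, 7 and 9 had 7, 7, 6, 0, 6 and 0 counts. It did not pass the filter, and the level of 0 in rat 9 allows up to 0.250 CPM. The exact permutation test gave p = 0.351 over 12 rats and p = 0.606 without rat 6, and no difference was detectable at this depth.

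**Figure D2:**
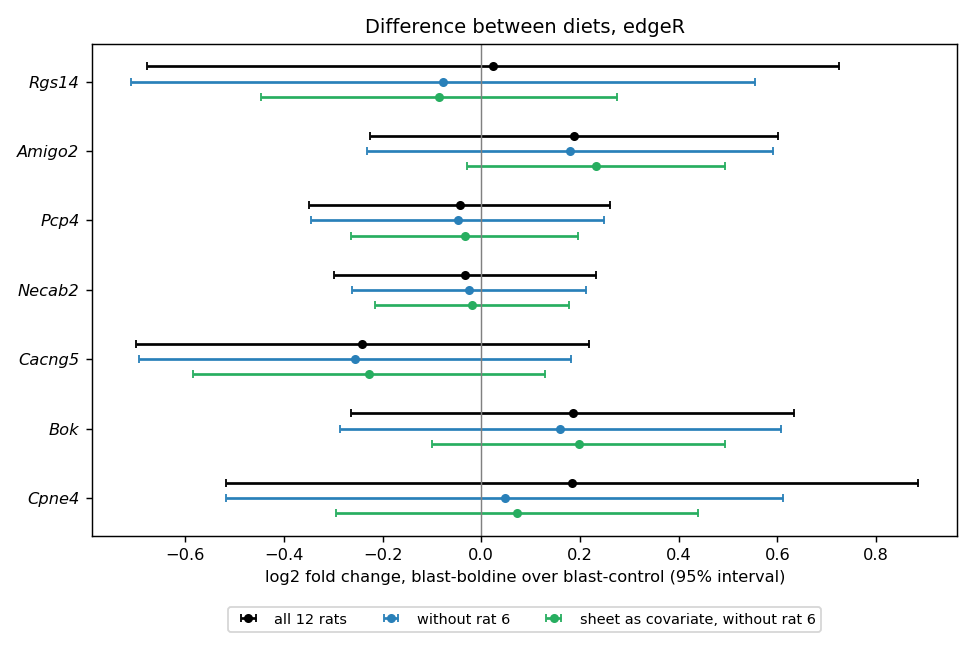
Log2 fold change of the 7 genes that passed the filter, blast-boldine over blast-control (x axis), with 95% intervals from edgeR, over 12 rats (black), without rat 6 (blue), and adjusted for sheet without rat 6 (green). All intervals include 0, and those adjusted for sheet are the narrower, from -0.45 to 0.27 for Rgs14 against -0.68 to 0.73 over 12 rats. The narrowing depends on the assignment of sheets. Adjusted over 12 rats by the other assignments, the Rgs14 interval (not drawn) was -0.83 to 0.69, -0.82 to 0.71 and -0.43 to 0.38.

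A clearer split than that by diet was the split by sheet, in which all 7 genes were lower on sheet 2, as were 50.1% of the 12529 genes tested without rat 6. Because the sheets were told apart by the first component of all genes, these differences are a description and carry no test. In edgeR, 8542 of the 12529 genes differed between these sheets at an adjusted p under 0.05, a count shaped by the same choice. A sheet difference was thus not particular to the marker genes. In a fit of sheet and diet without rat 6, Rgs14 was 0.78 lower on the log2 scale on sheet 2 (-0.78, SE 0.17), Cpne4 0.62 lower (-0.62, SE 0.17), Bok 0.47 lower (-0.47, SE 0.14) and Amigo2 0.45 lower (-0.45, SE 0.12). Cacng5 (-0.35, SE 0.17), Pcp4 (-0.22, SE 0.11) and Necab2 (-0.080, SE 0.091) differed less. In CPM, Rgs14 averaged 151.2 ± 19.9 (SD, n = 6) on sheet 1 and 87.7 ± 30.0 (SD, n = 5) on sheet 2. Cpne4 averaged 275.1 ± 52.5 CPM (SD, n = 6) and 177.5 ± 47.9 CPM (SD, n = 5). Without rat 6, Iyd ran the other way, with 0 to 0.361 CPM on sheet 1 and 0.397 CPM or more on sheet 2, all from 13 counts or fewer.

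Some marker lists of other cells differed between the sheets as well, while others overlapped. The summed level of 6 microglia genes ran from 310.8 to 353.1 CPM on sheet 1 and from 132.0 to 216.0 CPM on sheet 2, and that of 6 oligodendrocyte genes from 4100 to 7330 CPM and from 2999 to 5322 CPM. In the opposite direction, 4 thalamus genes summed to 152.1 to 188.2 CPM on sheet 1 and 242.5 to 276.7 CPM on sheet 2. Of these, Tcf7l2 (1.83, SE 0.12) and Plekhg1 (1.003, SE 0.058) were higher on sheet 2 on the log2 scale, Ntng1 differed by 0.18 (SE 0.11), and Prkcd was lower (-0.40, SE 0.14). The 6 dentate granule genes, too, summed to 243.6 to 342.4 CPM on sheet 1 and 367.1 to 478.7 CPM on sheet 2, with Prox1 higher there (1.01, SE 0.084) and C1ql2 lower (-0.58, SE 0.22) on the log2 scale. The 5 endothelial genes summed to 68.6 to 97.7 CPM on sheet 1 and 177.9 to 241.2 CPM on sheet 2. Of these 5 lists, none but that of the dentate granule cells had a gene at 0 in a deeper library. The 6 pan-neuronal genes summed to 3741 to 5413 CPM on sheet 1 and 5369 to 7633 CPM on sheet 2. Rbfox3 (1.11, SE 0.11), Nrgn (0.98, SE 0.12), Syt1 (0.94, SE 0.083) and Camk2a (0.84, SE 0.12) were higher there on the log2 scale. Snap25 (-0.21, SE 0.12) and Slc17a7 (-0.17, SE 0.15) were not. For the 5 mossy cell genes the sums were 34.9 to 42.9 CPM on sheet 1 and 27.2 to 32.7 CPM on sheet 2. Nmb (-2.47, SE 0.22) and Drd2 (-0.93, SE 0.21) were lower there. Calb2 (-0.036, SE 0.14), Calcrl (-0.065, SE 0.12) and Csf2rb (0.18, SE 0.29) differed less. The other CA3-enriched genes in the table (Grik4, Coch, Dkk3 and Nectin3) were lower on sheet 2 too, from 600.4 to 779.9 CPM on sheet 1 and from 470.2 to 540.2 CPM on sheet 2. The 5 other CA2-enriched genes in the table overlapped between the sheets, at 451.0 to 505.6 CPM and 389.5 to 482.0 CPM. Among them Ntf3, a neurotrophin, was 1.67 higher on the log2 scale on sheet 2 (SE 0.16), and Ptpn5, a tyrosine phosphatase, differed by -0.076 (SE 0.065). Fgf2 (-0.27, SE 0.087) and Nr3c2 (-0.36, SE 0.098) were lower there. The CA1 list overlapped between the sheets, at 980.1 to 1242 CPM on sheet 1 and 699.7 to 1239 CPM on sheet 2. So did the sums of the astrocyte, interneuron, cortical layer, striatum, ependymal and choroid plexus lists. The part of tissue composition, depth or sequencing in the sheet difference was not tested.

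Within sheet 1, where 3 rats of each diet were sequenced deeply, 4 genes lay higher on boldine by 0.24 (Rgs14), 0.21 (Amigo2), 0.29 (Bok) and 0.27 (Cpne4) in mean log2 CPM, and the diets overlapped in each of them. Necab2 (0.089), Pcp4 (0.082) and Cacng5 (-0.064) differed less there, and overlapped too. A comparison of 3 with 3 rats was not tested, since its exact permutation p cannot fall under 0.10. Within sheet 2 and without rat 6, the difference was -0.41 for Rgs14, 0.32 for Amigo2, 0.12 for Bok and -0.055 for Cpne4, with rats 4 and 5 as the only controls. Cacng5 had the largest of these differences at -0.48, and Pcp4 (-0.15) and Necab2 (-0.14) had the opposite sign to sheet 1, with overlap of the diets in all 7 genes. The difference between sheets in the effect of diet was tested as an interaction in edgeR. It was -0.71 (SE 0.28, unadjusted p = 0.0270, adjusted p = 0.881) for Rgs14, the smallest p of the 7, where 5.64% of all genes had an unadjusted p under 0.05, and no gene in the table had an adjusted p under 0.05.

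Control rats 4 and 5 set the sheet 2 comparison. Rat 5 was the lowest of the 11 deeper libraries in Rgs14, Amigo2, Bok and Cpne4, and rat 4 was the highest of sheet 2 in the same 4 genes. Cpne4 was 252.7 CPM in rat 4 and 123.4 CPM in rat 5, and Bok was 50.4 CPM and 31.1 CPM. After seeing these values, the fit with the sheet as a covariate was repeated without each of them. Without rats 4 and 6, 4 of the 7 genes had an unadjusted p under 0.05 in edgeR, beside 6.51% of the 12600 genes tested. These were Amigo2 (log2 fold change 0.34, SE 0.12), Bok (0.34, SE 0.13), Cpne4 (0.31, SE 0.13) and Rgs14 (0.19, SE 0.080), with unadjusted p of 0.0131 to 0.0339 and adjusted p of 0.739 to 0.755. Without rats 5 and 6, 0 of the 7 genes did, beside 8.2% of the genes tested, and Rgs14 (-0.16, SE 0.17) and Cpne4 (-0.039, SE 0.16) were lower on boldine. The count of genes past the threshold thus depended on which of these control rats was left out, and no other rat was left out of this fit beside rat 6. These fits left rat 5 or rat 4 as the only control of sheet 2. Rat 4 was the highest of sheet 2 in the same 4 genes, so leaving it out raises their fold changes by construction. The p-values of these fits are therefore no test of diet.

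Rats 4 and 5 also differed in other lists. The pan-neuronal list of 6 genes summed to 7633 CPM in rat 4 and 5369 CPM in rat 5, the oligodendrocyte list to 5322 CPM and 3319 CPM, and the microglia list to 216.0 CPM and 132.0 CPM. The other way ran the endothelial list, at 177.9 CPM in rat 4 and 236.5 CPM in rat 5, the mossy cell list, at 27.2 CPM and 32.7 CPM, the cortical layer list, at 194.0 CPM and 214.9 CPM, and the thalamus list, at 242.5 CPM and 252.9 CPM. Like the pan-neuronal list, the CA1 list (1239 and 969.2 CPM) and the dentate granule list (437.9 and 367.3 CPM) were higher in rat 4. So were the other CA2-enriched genes (482.0 and 389.5 CPM), the other CA3-enriched genes (540.2 and 470.2 CPM) and the astrocyte list (3400 and 2812 CPM). The interneuron list was slightly lower in rat 4, at 438.4 CPM against 443.6 CPM in rat 5. The part of these cells in the difference between the rats was not tested.

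Deviations of the 7 genes were compared from rat to rat. After the mean of each diet and sheet was taken from the log2 CPM of the 11 deeper libraries, 15 of the 21 pairs of the 7 genes had a Pearson r above 0, and 9 had an r above 0.8. Over all pairs of the 12529 genes, 50% had an r above 0 and 3.32% an r above 0.8. Amigo2 and Cpne4 were the likest pair (r = 0.97), followed among others by Bok and Cpne4 (r = 0.93). Pcp4 had an r below 0 with each of the other 6. Rats 4 and 5, the only members of their class, deviate by equal and opposite amounts and weigh heavily in these values. Without them, over 9 libraries, 4 pairs kept an r above 0.8, Amigo2 with Cpne4 (0.91), Bok with Cpne4 (0.89), Rgs14 with Necab2 (0.87) and Necab2 with Bok (0.83), and Pcp4 lay between -0.29 and 0.31 with the others. Over all pairs of genes in these 9 libraries, 2.38% had an r above 0.8. The points share library, depth and composition, the 21 pairs are made from only 7 genes, and these correlations are a description of 11 libraries with 7 residual degrees of freedom.

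**Figure D3:**
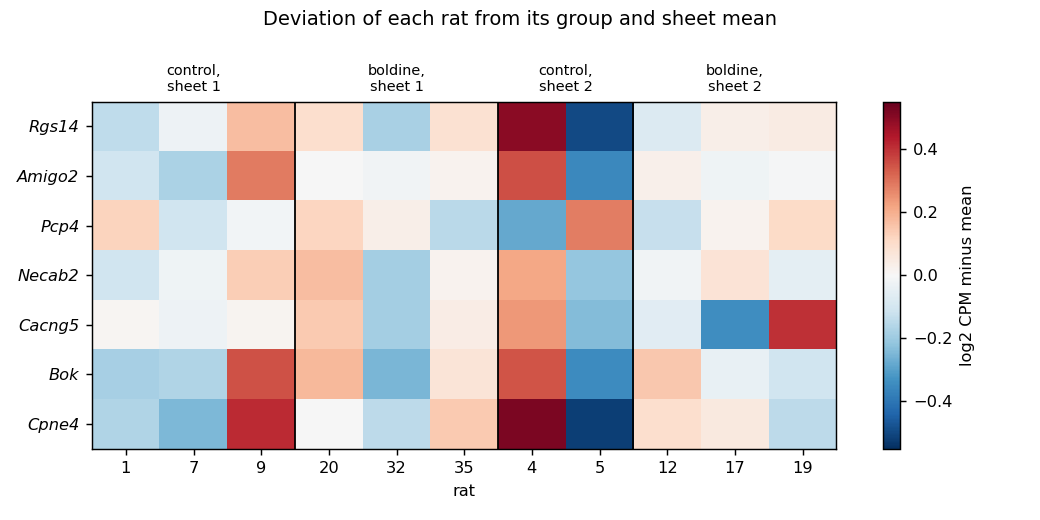
Deviation of each of the 11 deeper libraries (x axis, rats ordered by sheet and diet, with vertical lines between the 4 classes) from the mean log2 CPM of its diet and sheet, for 7 genes (y axis). Red is above the mean and blue below. Rat 4 is high and rat 5 low in all genes but Pcp4, and rat 9 is high in Amigo2, Bok and Cpne4.

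By the same measure, the 3 genes whose deviations were most like those of Rgs14 were Snd1, Jund and Apc2. Those of Amigo2 were Camk2b, Adm and Slit1, and those of Cpne4 were Agpat4, Rab40b and Kcnip2. Bok was followed most closely by Cdo1, Eef1akmt1 and Thap11, and Pcp4 by Tfpi, Cpne8 and Strbp. For Necab2 they were Ttpa, Emc6 and Taf10, and for Cacng5 Golga7b, RGD1309489 and Kctd7. Pearson r of these 21 genes ran from 0.955 to 0.984 over 11 libraries and from 0.911 to 0.976 over the 9 without rats 4 and 5. The genes were picked for the highest r of all genes tested in these 11 libraries, so high values were set by the choice. The 9 libraries are among those 11, so their r is no separate check. None of the 8 marker genes was among the 21. Within diet and sheet, the SD of log2 CPM was 0.35 for Cpne4, 0.29 for Rgs14 and 0.28 for Bok, above the median of 0.18 over the genes tested, and 0.17 for Necab2, below it.

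Genes related to the 8 by field, family or binding were compared with them as counts, over 12 rats in edgeR. Of 7 other CA2-enriched genes listed, 5 were in the table and 4 were tested, with 2 higher on boldine, 2 lower and a median log2 fold change of -0.022, from -0.21 for Fgf2 to 0.46 for Ntf3. In edgeR, 0 of these 4 reached an unadjusted p under 0.05. Of 5 other CA3-enriched genes, 4 were tested, with a median of 0.026, 3 higher and 1 lower. Coch, which encodes cochlin, was the highest at 0.60 (SE 0.40), and Dkk3, of the dickkopf family of WNT regulators, the lowest at -0.0061 (SE 0.17), and neither they nor the other 2 had an unadjusted p under 0.05. Adjusted for sheet and without rat 6, Coch (log2 fold change 0.68, SE 0.26) was higher and Fgf2 (-0.22, SE 0.086) and Ptpn5 (-0.16, SE 0.065) were lower with an unadjusted p under 0.05 in edgeR, and each had an adjusted p of 0.898. In that fit 5.35% of all genes had an unadjusted p under 0.05. Without rat 6 and without that adjustment, the median was -0.10 for the 4 CA2-enriched genes (1 higher, 3 lower) and 0.031 for the 4 CA3-enriched genes (2 higher, 2 lower), and 0 of the 8 reached an unadjusted p under 0.05 in edgeR.

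Among 22 relatives of the 8 genes in their protein families, 8 were higher and 14 lower on boldine, with a median log2 fold change of -0.031. Only Bak1, a pore-forming relative of Bok in the BCL-2 family, had an unadjusted p under 0.05 over 12 rats in edgeR (log2 fold change -0.43, SE 0.19), and its adjusted p rounded to 1. Adjusted for sheet and without rat 6, Bak1 (-0.37, SE 0.11) and Cpne5, a copine like Cpne4 (-0.33, SE 0.10), were lower with an unadjusted p under 0.05, and the adjusted p of each was 0.898 in edgeR. Among 17 partners that the 8 proteins are known to bind or act on, 9 were higher and 8 lower, the median was 0.019, and 0 had an unadjusted p under 0.05. They ranged from -0.23 for Itpr1, an inositol trisphosphate receptor, to 0.20 for Gnai1, an inhibitory G protein subunit. Without rat 6, the median was -0.028 for the relatives, with Bak1 and Cpne5 lower at an unadjusted p under 0.05, and 0.050 for the partners (12 higher, 5 lower), with 0 at that threshold. Of all genes tested, 1.07% had an unadjusted p under 0.05 over 12 rats, 1.4% without rat 6, and 5.35% without rat 6 and adjusted for sheet.

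Neighbouring cell types were compared through their own marker lists. All 6 CA1 genes tested were lower on boldine over 12 rats in edgeR, with a median log2 fold change of -0.24. None of these 6 had an unadjusted p under 0.05. Of 8 cortical layer genes, 7 were lower, and the median of the 8 was -0.33. Among them, 3 (Cplx3, Nxph4 and Ccn2) had an unadjusted p under 0.05 in edgeR. That threshold was passed by 1.07% of all genes tested over 12 rats and by 1.4% without rat 6. No gene in either fit had an adjusted p under 0.05. Choroid plexus varied from rat to rat, its 7 genes summing to 9.77 to 1333 CPM in blast-boldine rats and to 13.8 to 1290 CPM in blast-controls without rat 6, and its part in the values of the marker genes was not tested. The 5 CA2 markers had a median of -0.033 and the 2 CA3 markers tested of 0.18. Without rat 6 these medians were -0.26 for CA1 (6 of 6 lower), -0.34 for the cortical layers (7 of 8 lower, the same 3 genes at an unadjusted p under 0.05), -0.048 for CA2 and 0.10 for CA3. Other lists also lay on 1 side of 0 over 12 rats: all 6 microglia genes were lower, and all 5 endothelial, 5 ependymal and 7 choroid plexus genes tested were higher. Of these, the ependymal gene Ccdc153 alone had an unadjusted p under 0.05 in edgeR. Of the 4 dentate granule genes tested, 3 were higher. Whether a list differed from another was not tested.

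**Figure D4:**
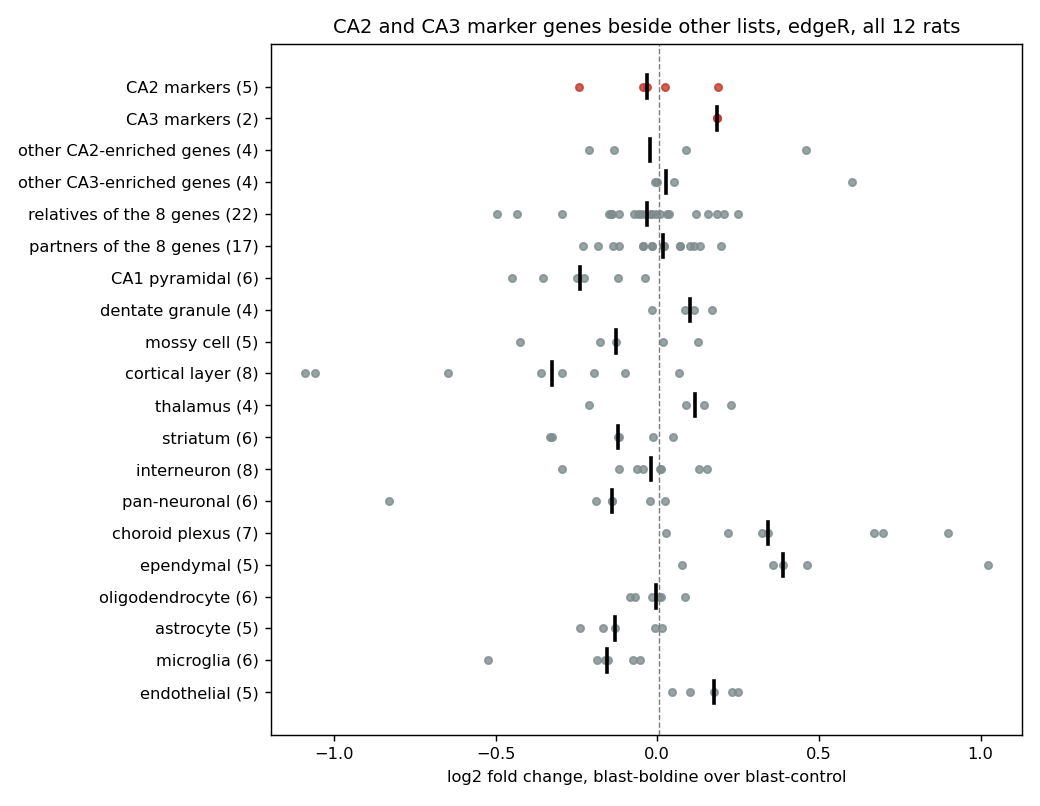
Log2 fold change in edgeR over 12 rats, blast-boldine over blast-control (x axis), of the genes of each list (y axis, number of genes tested in parentheses), with the CA2 and CA3 marker genes in red. Vertical bars are medians and the dashed line is the median of all genes. The CA2 markers lie on both sides of 0, around a median of -0.033, while the 6 CA1 and 6 microglia genes lie below 0 and the endothelial, ependymal and choroid plexus genes above it.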

How the data were processed

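The deposited values are raw read counts on exons per gene of 12 libraries, 1 per rat, with the exon length of each gene, in bases, as the other column used. The authors used HTStream to trim reads and remove duplicates, STAR 2.7.11b for alignment to mRatBN7.2, and featureCounts (Subread 2.0.1) for stranded counting. Removing duplicates without molecular identifiers can lower the counts of short, abundant genes. The submitters' processing notes also name DESeq2.

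After filterByExpr (default minimum 10) and TMM normalization, differences were tested by quasi-likelihood in edgeR (version 4.0.16, under R 4.3.3), with diet as the only term and Benjamini-Hochberg adjustment at 0.05 over all genes kept. Log2 CPM has a prior count of 2. Each marker gene was also compared by an exact permutation test, whose smallest p is 0.00216 over 12 rats. All p-values are two-sided. Floors of 3 counts cover counting error only.

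Groups came from the labels. The sheet of each library was inferred from its name suffix: of the 4 assignments that remain if rat numbers are assumed to rise with the suffix on each sheet, the one that accounted for most of the first component was used. The genes and lists were chosen with earlier results of these data known. The genes named are the 8 markers, the 3 likest genes by Pearson r of each of the 7 that passed the filter, and the highest and lowest of each list of related genes. All others, such as Bak1, Cpne5, Ptpn5, Grik4, Nectin3 and the thalamus and dentate granule genes, were named after their values were seen. Alternatives were DESeq2 1.42.0, limma-voom (limma 3.58.1), other size factors and filters, the sheet as a covariate and leaving out rats. Methods were tested on simulated data. Permutations ran in Python 3.11.15 (numpy 2.4.6), and plots were drawn with matplotlib 3.10.9.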

Additional observations from a re-analysis of the deposited data

Results flagged for a closer look

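In Cacng5, a single rat stood apart from the rest of its group. Over all 6 blast-controls, rat 6 was far below the others at 0 CPM, where the next lowest was 2.87 CPM, and its 0 counts allow up to 47.5 CPM. With rat 6 left out, rat 5 stood apart at 2.87 CPM, where the next lowest of the 5 controls was 3.72 CPM. These were 2 of 24 groups of values looked at, and chance marks about 1 group in 20.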

How the results depend on the processing

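No gene had an adjusted p under 0.05 for the difference between diets in any of the 27 other settings run. Of the 27 settings run for the count of marker genes with an unadjusted p under 0.05, 26 gave 0, and the exception, chosen after seeing the data, was the sheet as a covariate without rats 4 and 6, with 4. Their median log2 fold change lay between -0.075 and 0.14 as each rat was left out in turn. Amigo2 and Bok stayed higher and Cacng5 lower on boldine in the 26 settings run for the fold change of each. With each rat left out in turn, Amigo2 ran from 0.061 to 0.32, Bok from 0.080 to 0.32, Cpne4 from 0.048 to 0.37 and Cacng5 from -0.33 to -0.15. Rgs14, at 0.024 in edgeR over 12 rats, changed sign in limma-voom (-0.076), adjusted for sheet (-0.064, and -0.067, -0.058 and -0.026 under the other assignments), adjusted for sheet without rat 6 (-0.086), in DESeq2 without rat 6 (-0.075) and with the sheet besides (-0.090), and adjusted for sheet without rats 5 and 6 (-0.16). In that last setting Pcp4 (0.097) and Cpne4 (-0.039) changed sign, and Necab2 (0.088) did so adjusted for sheet without rats 4 and 6. Leaving out 1 rat changed the sign of Rgs14 (-0.11 to 0.14), Pcp4 (-0.12 to 0.017) and Necab2 (-0.075 to 0.018). In mean log2 CPM, Rgs14 (-0.13, and -0.086 within sheets) and Cacng5 (-0.28, and -0.27 within sheets) changed sign without rat 6. The value for Cacng5 rests on the 0 counts of rat 6, and the causes of the other sign changes were not tested. A minimum of 10 counts in every rat kept only Necab2, so no median was taken. No paired analysis was possible because the groups share no rat number. With 6 rats a group, the 95% intervals of the 7 genes that passed the filter allow differences of up to 1.85-fold (Cpne4) in edgeR over 12 rats, and that of Iyd, tested with no filter, of up to 3.65-fold.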
